A study of Homo sapiens with 18 samples.

Results

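The genes described here encode 10 proteins of the U4/U6.U5 tri-snRNP: PRPF8, SNRNP200, EFTUD2, SNRNP40, PRPF6, PRPF3, PRPF4, PRPF31, SART1 and USP39. They were chosen by name as proteins of this particle, with earlier results of these data known. Each of the 10 was matched by its Ensembl identifier among the 57905 genes of each count file. RNA was measured by RNA sequencing in 18 libraries, 3 in each of 6 groups, from 2 established human lines. KMS12-BM is labelled as a multiple myeloma line and JJN3 as a plasma cell leukemia line, and each line stands for 1 donor tumour. The groups were KMS12-BM with 0.1 mM amiloride for 24 h, JJN3 with 0.4 mM amiloride for 24 h, KMS12-BM and JJN3 with 0.4 mM TG003 for 24 h, and KMS12-BM and JJN3 labelled as untreated (DMSO), for which no duration was given. Amiloride is a diuretic that blocks sodium channels and sodium-proton exchangers, and TG003 is an inhibitor of the CLK kinases, which phosphorylate SR splicing proteins. KMS12-BM was grown with more fetal bovine serum than JJN3, so medium and line cannot be told apart. Nothing in the labels shows that replicate libraries were grown as separate cultures, and each p-value therefore reflects the spread of these samples alone, which may be technical.

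The spliceosome cuts introns out of pre-mRNA, and the tri-snRNP is the preassembled particle that brings its U4, U6 and U5 RNAs to the intron. Within it, U6 is held inactive by base pairing with U4. The U5 proteins PRPF8, SNRNP200 and EFTUD2 form a large module in which PRPF8 cradles the catalytic centre, SNRNP200 is the helicase that unwinds U4 from U6, and EFTUD2 is a GTPase that takes part in activation and disassembly. SNRNP40 is a WD-repeat protein of the U5 particle. PRPF3 and PRPF4 bind the U4/U6 duplex as a pair, PRPF31 binds U4, and PRPF6 bridges U5 and U4/U6. SART1 and USP39, a ubiquitin protease homologue without protease activity, join when the full tri-snRNP forms. Inherited variants of several of these genes, PRPF31 and PRPF8 among them, are known causes of retinitis pigmentosa, and plasma cells are known for their large output of secreted antibody.

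Promoter windows came from RefSeq (GRCh38.p14), each 300 bases long, from 250 before to 50 after an annotated start. They were at hand for 9 of the 10 genes, all but PRPF3, with 12 windows in all. Below are 4 of them, those of SART1, PRPF4, EFTUD2 and PRPF8. SART1 and PRPF4 were higher in all 4 comparisons of a drug with DMSO, as was PRPF3. EFTUD2 was lower with amiloride in KMS12-BM, and PRPF8 was lower with TG003 in both lines. The capitals mark CGGAAG or its reverse complement CTTCCG, the core of many ETS factor sites, and each sequence is written 5′ to 3′ on the strand of its gene.
SART1 (chr11:65961484-65961783, plus strand): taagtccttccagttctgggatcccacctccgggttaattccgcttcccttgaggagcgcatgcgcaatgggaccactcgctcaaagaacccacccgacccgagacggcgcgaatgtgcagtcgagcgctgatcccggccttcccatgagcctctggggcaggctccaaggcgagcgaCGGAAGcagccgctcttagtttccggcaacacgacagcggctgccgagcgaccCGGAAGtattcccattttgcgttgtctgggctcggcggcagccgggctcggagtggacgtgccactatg
PRPF4 (chr9:113275408-113275707, plus strand): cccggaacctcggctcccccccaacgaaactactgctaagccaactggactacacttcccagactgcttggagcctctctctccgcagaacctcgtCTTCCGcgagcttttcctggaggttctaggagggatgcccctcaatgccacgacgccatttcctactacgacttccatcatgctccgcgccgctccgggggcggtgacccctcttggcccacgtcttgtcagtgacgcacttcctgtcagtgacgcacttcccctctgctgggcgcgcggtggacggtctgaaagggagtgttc
EFTUD2 (chr17:44899319-44899618, minus strand): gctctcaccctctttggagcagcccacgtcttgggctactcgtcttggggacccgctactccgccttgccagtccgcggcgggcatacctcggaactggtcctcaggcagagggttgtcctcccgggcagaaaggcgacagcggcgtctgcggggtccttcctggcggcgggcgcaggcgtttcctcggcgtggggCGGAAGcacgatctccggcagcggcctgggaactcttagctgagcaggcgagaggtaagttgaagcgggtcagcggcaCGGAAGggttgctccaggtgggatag
PRPF8 (chr17:1684818-1685117, minus strand): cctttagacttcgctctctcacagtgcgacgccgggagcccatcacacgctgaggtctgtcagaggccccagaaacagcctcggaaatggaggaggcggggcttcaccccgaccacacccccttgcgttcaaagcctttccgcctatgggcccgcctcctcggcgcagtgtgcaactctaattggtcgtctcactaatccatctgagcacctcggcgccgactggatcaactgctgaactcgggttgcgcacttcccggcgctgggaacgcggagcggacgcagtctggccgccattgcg

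The SART1 window held the ETS core at 72 and 19 bases before the start site, that of EFTUD2 at 54 before and at position 25 after it, and that of PRPF4 at 154 before, while the PRPF8 window held none. Over all members, 7 of 12 windows, belonging to EFTUD2, PRPF4, PRPF6, SART1, SNRNP200 and USP39, held it, against 19.5% of the 35116 windows in the table. The other motifs searched, all on both strands, were the CCAAT box (CCAAT, 4 of 12 windows against 34.6%), the TATA box (TATAAA, 0 of 12 against 11.5%) and the GC box (GGGCGG, 9 of 12 against 45%). They also included the NRF1 site (GCGCNNGCGC, 3 of 12 against 8.32%), the E-box (CACGTG, 1 of 12 against 7.26%) and the YY1-type site (GCCGCCAT, 2 of 12 against 3%). The last were the CRE (TGACGTCA, 1 of 12 against 1.85%) and its core (TGACG, 5 of 12 against 24.6%), which lies inside the full CRE. The 12 windows share genes, with 3 from USP39 and 2 overlapping ones from EFTUD2, and a match of letters is a description, not a bound site.

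The libraries held between 23707695 and 50570234 reads in genes, and a member had between 1340 and 57666 reads in a library, so every member passed the filter on low counts. The 6 TG003 libraries stood apart from the other 12 in both lines: processed pseudogenes, which are intronless copies of genes, held 0.106% to 0.13% of their reads, against 4.49% to 5.61% in the amiloride and DMSO libraries. Reads placed at more than 1 site were 7.79% to 9.13% of the records with TG003 and 13.3% to 17.4% in the others. Reads in no annotated gene were 6.42% to 8.17% with TG003 and 11.4% to 13.6% in the others. All TG003 libraries and no others had these differences, so in each TG003 comparison the drug cannot be told apart from them. Mitochondrially encoded genes held 0.265% to 0.448% of the reads with amiloride and 3.86% to 4.25% with DMSO in KMS12-BM, and 0.709% to 1.03% with amiloride and 2.06% to 2.61% with DMSO in JJN3. The sum of 9 plasma cell markers was 905 to 4922 CPM (counts scaled to library size), with none of them at 0 in any group. It was 2825 to 3147 CPM with amiloride, 905 to 961 CPM with TG003 and 2074 to 2160 CPM with DMSO in KMS12-BM. In JJN3 it was 4243 to 4922 CPM with amiloride, 2203 to 2437 CPM with TG003 and 4454 to 4803 CPM with DMSO. The highest of these markers were IRF4 in KMS12-BM (461 to 2213 CPM) and JCHAIN in JJN3 (1120 to 3526 CPM). Some were low, among them SLAMF7 (0.034 to 0.778 CPM) and JCHAIN (0.731 to 2.94 CPM) in KMS12-BM. In JJN3, SLAMF7 (0.347 to 2.79 CPM) and CD38 (2.07 to 6.83 CPM) were low. The sum of 5 mature B cell markers, mostly PAX5 and CIITA in KMS12-BM and CIITA in JJN3, was 74.1 to 80.1 CPM with amiloride, 60.5 to 69.3 CPM with TG003 and 80.4 to 96.6 CPM with DMSO in KMS12-BM. In JJN3 it was 33.6 to 50.9 CPM with amiloride, 57.5 to 68.9 CPM with TG003 and 80.2 to 94.6 CPM with DMSO. The sum of 4 stromal, endothelial and epithelial markers, nearly all of it EPCAM, was 122 to 190.3 CPM with amiloride, 103 to 117 CPM with TG003 and 105 to 120 CPM with DMSO in KMS12-BM, and 29.3 to 43.99 CPM with amiloride, 19.8 to 20.8 CPM with TG003 and 22.4 to 25.9 CPM with DMSO in JJN3. The sum of 3 erythroid markers was 5.85 to 8.03 CPM with amiloride, 5.05 to 5.89 CPM with TG003 and 10.4 to 11.1 CPM with DMSO in KMS12-BM, and 41.6 to 65.3 CPM with amiloride, 21.6 to 29.0 CPM with TG003 and 51.0 to 66.2 CPM with DMSO in JJN3. Markers of T and NK cells summed to at most 5.68 CPM and those of myeloid cells to at most 2.34 CPM. The part of these shifts in the results was not tested. In bulk RNA, fewer cells of a kind and less RNA per cell cannot be told apart.

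With DMSO, the RNA of PRPF8 was the most abundant of the 10 per length of canonical transcript and that of SART1 the least in both lines. All annotated exons together are longer for every gene but PRPF6, such as 10153 against 4326 bases for EFTUD2 and 3887 against 1615 for SNRNP40. Reads were counted per gene, so the order and ranks, the last place of SART1 among them, depend on the length used. Per length, PRPF8 was at 153 ± 7.42 CPM per kb in KMS12-BM and 110 ± 3.41 CPM per kb in JJN3 (SD, n = 3 each), and SART1 at 21.5 ± 1.124 CPM per kb in KMS12-BM and 24.2 ± 3.98 CPM per kb in JJN3. In KMS12-BM the order below PRPF8 was SNRNP200, EFTUD2, PRPF6, PRPF31, USP39, SNRNP40, PRPF3, PRPF4 and SART1. The step from PRPF8 to SNRNP200 (69.6 ± 3.65 CPM per kb) and that from PRPF4 to SART1 were the only neighbours in this order whose library values did not overlap. In JJN3 the order was PRPF8, SNRNP200, PRPF3, EFTUD2, PRPF6, SNRNP40, PRPF31, USP39, PRPF4 and SART1. There the library values of neighbours were apart between PRPF8 and SNRNP200, between PRPF3 and EFTUD2, and between PRPF31 and USP39, and overlapped in the other steps. PRPF3 ranked 8 of 10 in KMS12-BM (36.0 ± 3.38 CPM per kb) and 3 of 10 in JJN3 (78.5 ± 5.48 CPM per kb), while its partner PRPF4 ranked 9 in both.

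**Figure D1:**
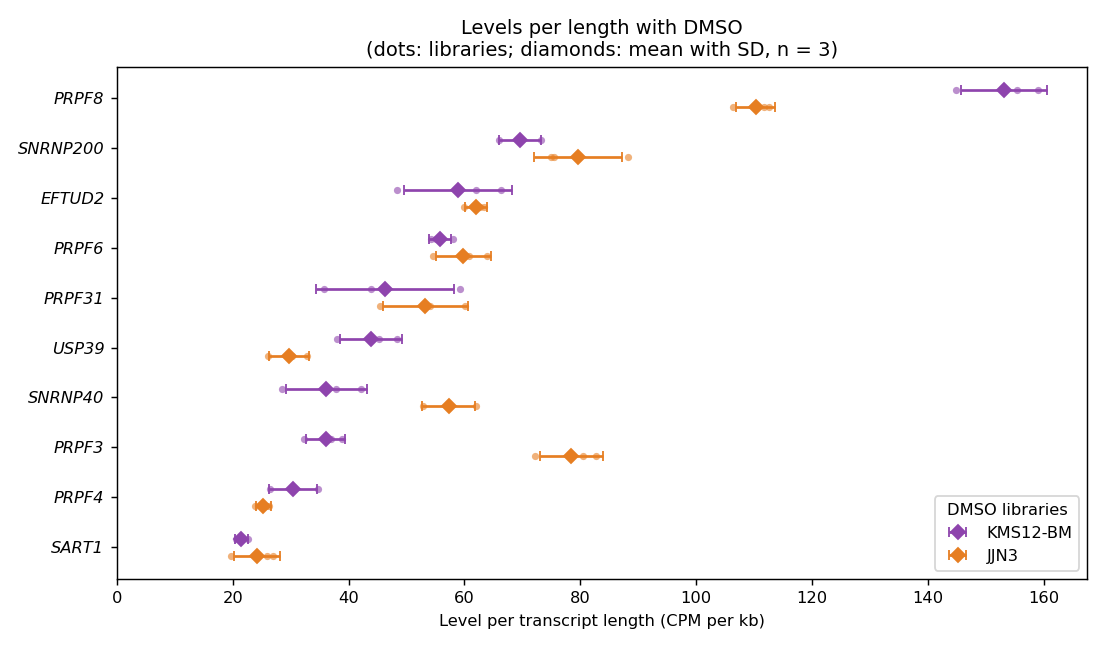
Levels of the 10 genes in CPM per kb of canonical transcript (horizontal axis) in the DMSO libraries of KMS12-BM and JJN3, with genes ordered down the page by their level in KMS12-BM. Dots are libraries and diamonds with bars are means with SD (n = 3); PRPF8 is highest in both lines, and PRPF3 lies at 36.0 in KMS12-BM and 78.5 in JJN3.

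Between the lines with DMSO, 6 of the 10 genes differed in edgeR's test, 3 higher and 3 lower in KMS12-BM, where 76.0% of all 17772 genes tested did, 36.8% higher and 39.3% lower. The library values were apart for the same 6 genes, where they were for 78.5% of all genes. PRPF3 (ENSG00000117360, chr1:150293928-150325709, plus strand, GRCh37) had the largest difference: 77.9, 93.7 and 89.3 CPM in KMS12-BM and 200, 194 and 174 CPM in JJN3. All 3 KMS12-BM libraries were lower than every JJN3 library, and the level was 0.459 times that in JJN3 (SE 0.0871 on the log2 scale, edgeR adjusted p = 2.33e-10). SNRNP40 (ENSG00000060688, chr1:31732415-31769635, minus strand) was also lower in KMS12-BM, with 46.1, 61.0 and 68.2 CPM there and 92.1, 100 and 85.2 CPM in JJN3. Its log2 difference was -0.66 ± 0.141 (edgeR adjusted p = 0.000337), and the ranges were apart. USP39 (0.56 ± 0.114, edgeR adjusted p = 0.000156) and PRPF8 (0.47 ± 0.101, edgeR adjusted p = 0.000252) were higher in KMS12-BM, without overlap of their libraries. PRPF4 was higher in KMS12-BM by 0.27 ± 0.0831 (edgeR adjusted p = 0.00672), but the difference was 0.16 with an adjusted p = 0.0842 without KMS12-BM DMSO replicate 3. SNRNP200 was lower by 0.19 ± 0.0780 on the log2 scale (edgeR adjusted p = 0.0301), a call lost in 6 of 19 alternatives, among them without JJN3 DMSO replicate 1 (-0.11), KMS12-BM DMSO replicate 1 (-0.15) or KMS12-BM DMSO replicate 2 (-0.19). EFTUD2, PRPF6, PRPF31 and SART1 did not pass the test between the lines, but PRPF31 did without KMS12-BM DMSO replicate 1 (-0.42) and SART1 without JJN3 DMSO replicate 3 (-0.30). With a trend with GC content over all genes removed, both also passed, PRPF31 at -0.29 (edgeR adjusted p = 0.0326) and SART1 at -0.27 (edgeR adjusted p = 0.0348).

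**Figure D2:**
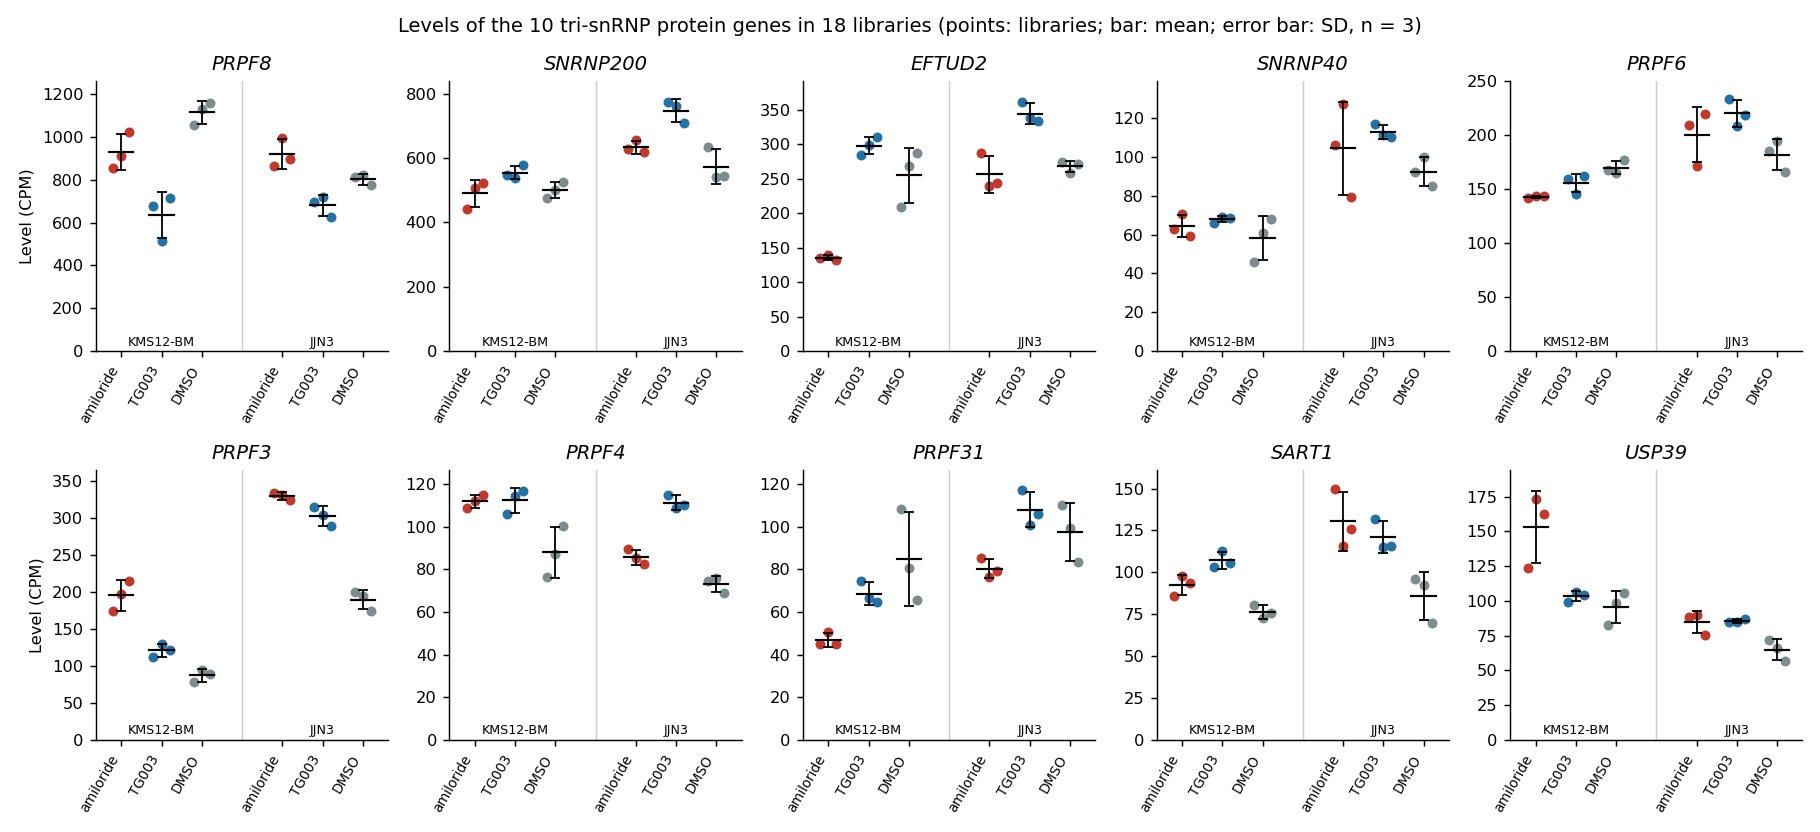
Level in CPM (vertical axis, from 0) of each gene in every library, with the amiloride, TG003 and DMSO groups of KMS12-BM on the left and those of JJN3 on the right of each panel. Points are libraries, the bar is the mean and the error bar the SD (n = 3); EFTUD2 with amiloride in KMS12-BM lies between 132 and 140 CPM, under all other libraries.

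With amiloride in KMS12-BM, PRPF3 rose by more than 2-fold, and USP39, PRPF4 and SART1 rose by less, while EFTUD2, PRPF31 and PRPF6 fell. These are 4 genes called higher and 3 called lower of 10, where 68.7% of the 15765 genes tested were called, 33.5% higher and 35.2% lower, so that 7 of 10 was close to the share of all genes. The library values of 8 of the 10 were apart from those with DMSO, where 71.7% of all genes were. In JJN3, amiloride was given at a higher dose than in KMS12-BM, and 4 genes were called higher and 1 lower there, where 43.6% of the 15704 genes tested were called, 19.7% higher and 23.9% lower. PRPF3, SART1, USP39 and PRPF4 were the 4 called higher in JJN3, and PRPF31 was the 1 called lower. The library values of 5 of the 10 were apart in JJN3, where 51.7% of all genes were. The median log2 fold change of the 10 was 0.05 in KMS12-BM and 0.18 in JJN3, where that of all genes was -0.02 in KMS12-BM and -0.03 in JJN3.

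Among the U5 proteins, the GTPase EFTUD2 (ENSG00000108883, chr17:42927316-42976813, minus strand) had 135, 140 and 132 CPM with amiloride in KMS12-BM, against 209, 268 and 287 CPM with DMSO. The 3 amiloride libraries lay close together and far below the DMSO libraries, with a log2 fold change of -0.91 ± 0.101 (edgeR adjusted p = 9.15e-06). In JJN3 it had 288, 239 and 244 CPM with amiloride and 274, 259 and 271 CPM with DMSO. The JJN3 groups overlapped, with a log2 fold change of -0.07 ± 0.0834 (95% interval -0.25 to 0.11, edgeR adjusted p = 0.536). The scaffold PRPF8 (ENSG00000174231, chr17:1553923-1588161, minus strand) had 857, 913 and 1023 CPM with amiloride in KMS12-BM and 1054, 1131 and 1158 CPM with DMSO. In JJN3 it had 866, 997 and 895 CPM with amiloride and 814, 820 and 774 CPM with DMSO. The amiloride libraries were thus all below the DMSO libraries in KMS12-BM and all above them in JJN3. Neither passed the test, with log2 fold changes of -0.26 ± 0.115 (edgeR adjusted p = 0.0643) in KMS12-BM and 0.19 ± 0.0762 (edgeR adjusted p = 0.0609) in JJN3. Each was past the threshold in 7 of 20 alternatives, among them in KMS12-BM without amiloride replicate 3 (-0.33). With a trend with GC content over all genes removed, the log2 fold change of PRPF8 was -0.08 (edgeR adjusted p = 0.559) in KMS12-BM and 0.22 (edgeR adjusted p = 0.0271) in JJN3. The helicase SNRNP200 (ENSG00000144028, chr2:96940076-96987009, minus strand) was not called in either line (log2 -0.03, 95% interval -0.20 to 0.14, in KMS12-BM and 0.14, interval -0.03 to 0.31, in JJN3), nor was SNRNP40 (0.14, interval -0.13 to 0.41, and 0.17, interval -0.12 to 0.46). In JJN3 alone, SNRNP200 passed without DMSO replicate 1 (0.22) and SNRNP40 without amiloride replicate 3 (0.33). The bridging protein PRPF6 (ENSG00000101161, chr20:62612485-62664453, plus strand) had 142, 144 and 143 CPM with amiloride in KMS12-BM, under its 168, 165 and 177 CPM with DMSO. Its log2 fold change was -0.25 ± 0.0660 (edgeR adjusted p = 0.00537), but it came to 0.15 with an adjusted p = 0.076 once the GC trend was removed. PRPF6 was not called in JJN3 (0.13 ± 0.0987, edgeR adjusted p = 0.30), except without amiloride replicate 2 (0.24).

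Of the U4/U6 proteins, PRPF3 and PRPF4 rose with amiloride in both lines. PRPF31, described below, fell in KMS12-BM, and its call in JJN3 was lost in several alternatives. PRPF3 had 174, 196 and 215 CPM with amiloride and 77.9, 93.7 and 89.3 CPM with DMSO in KMS12-BM, and 334, 331 and 324 CPM with amiloride and 200, 194 and 174 CPM with DMSO in JJN3. Each amiloride library was above every DMSO library of its line. The log2 fold changes were 1.17 ± 0.0976 (edgeR adjusted p = 1.09e-06) in KMS12-BM and 0.79 ± 0.0720 (edgeR adjusted p = 6.81e-06) in JJN3. Its partner PRPF4 (ENSG00000136875, chr9:116037922-116056289, plus strand) had 109, 112 and 115 CPM with amiloride against 76.4, 87.2 and 101 CPM with DMSO in KMS12-BM. In JJN3 it had 89.4, 85.1 and 82.4 CPM with amiloride and 74.8, 76.0 and 69.0 CPM with DMSO. These groups were apart in both lines, with smaller log2 fold changes than for PRPF3, of 0.35 ± 0.0928 (edgeR adjusted p = 0.00583) in KMS12-BM and 0.22 ± 0.0687 (edgeR adjusted p = 0.0208) in JJN3. The JJN3 call was lost without JJN3 amiloride replicate 1 (0.18, edgeR adjusted p = 0.0782) and without JJN3 DMSO replicate 3 (0.18, edgeR adjusted p = 0.0837).

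PRPF31 (ENSG00000105618, chr19:54618790-54635150, plus strand), which clasps the U4 RNA, had 45.1, 50.7 and 45.0 CPM with amiloride in KMS12-BM, against 109, 80.4 and 65.4 CPM with DMSO. All amiloride libraries were below the DMSO libraries, which themselves spread widely, and the log2 fold change was -0.85 ± 0.157 (edgeR adjusted p = 0.000584). With the GC trend removed it was -0.37, still past the threshold. In JJN3 PRPF31 had 85.4, 76.6 and 79.1 CPM with amiloride and 110, 99.2 and 83.4 CPM with DMSO. Those ranges overlapped, and the call (log2 -0.29 ± 0.101, edgeR adjusted p = 0.0343) was lost in 7 of 20 alternatives, among them the GC trend removed (-0.19, edgeR adjusted p = 0.0897). It was also lost without JJN3 amiloride replicate 2 or 3 or JJN3 DMSO replicate 1 or 2, with the log2 fold change between -0.28 and -0.19. PRPF31 overlaps TFPT, which lies on the opposite strand and was at 16.0 to 18.6 CPM with amiloride and 13.0 to 19.5 CPM with DMSO in KMS12-BM. The strand setting of the counting is not given in the sources used here, so reads of the pair may not be told apart.

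Of the proteins that join the complete tri-snRNP, SART1 (ENSG00000175467, chr11:65729199-65747608, plus strand) had 85.9, 97.6 and 93.9 CPM with amiloride against 80.8, 72.9 and 75.5 CPM with DMSO in KMS12-BM. In JJN3 it had 150, 116 and 126 CPM with amiloride against 96.0, 92.2 and 69.8 CPM with DMSO. All amiloride libraries were above the DMSO libraries in both lines, with log2 fold changes of 0.28 ± 0.0767 (edgeR adjusted p = 0.0071) in KMS12-BM and 0.59 ± 0.128 (edgeR adjusted p = 0.00307) in JJN3. With the GC trend removed the KMS12-BM value was 0.80. USP39 (ENSG00000168883, chr2:85829979-85876406, plus strand) had 124, 173 and 162 CPM with amiloride against 82.8, 98.7 and 106 CPM with DMSO in KMS12-BM. In JJN3 it had 88.1, 90.1 and 75.6 CPM with amiloride against 71.7, 66.2 and 56.9 CPM with DMSO. These groups were apart too, and the log2 fold changes were 0.68 ± 0.121 (edgeR adjusted p = 0.000382) in KMS12-BM and 0.37 ± 0.0914 (edgeR adjusted p = 0.00532) in JJN3. USP39 overlaps C2orf68 on the opposite strand, which went the other way, with 16.1 to 19.4 CPM with amiloride and 39.1 to 39.4 CPM with DMSO in KMS12-BM. Removing the mitochondrial genes, whose share moved with amiloride, left 7 members called in KMS12-BM and 5 in JJN3, the same counts as with them. With them, 68.7% of all genes were called in KMS12-BM and 43.6% in JJN3.

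**Figure D3:**
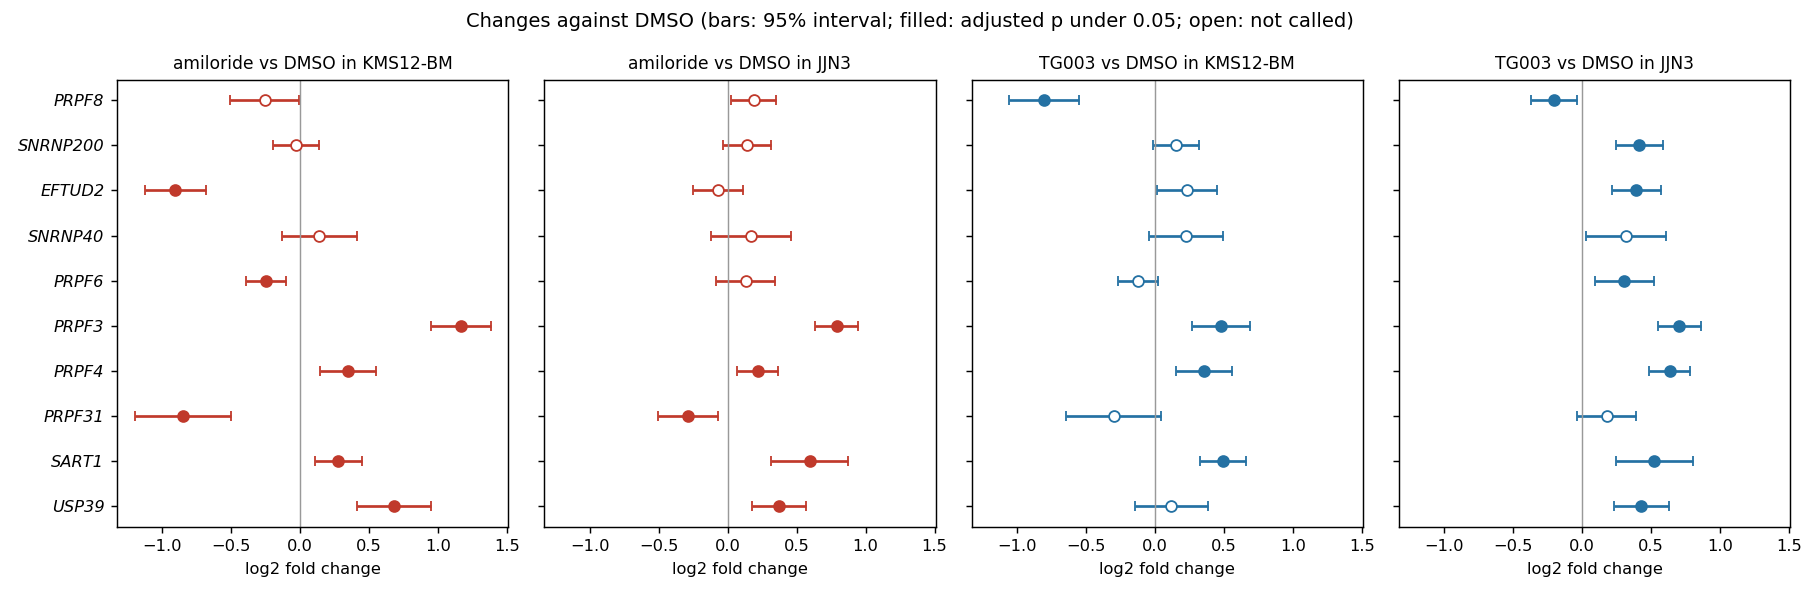
Log2 fold change against DMSO (horizontal axis) of the 10 genes for amiloride and TG003 in each line, with 95% intervals. Filled points passed an edgeR adjusted p of 0.05 and open points did not; PRPF3, PRPF4 and SART1 lie right of 0 and are filled in all 4 panels, and PRPF8 lies left of 0 in both TG003 panels.

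With TG003, PRPF8 fell in both lines, while PRPF3, PRPF4 and SART1 rose in both. In KMS12-BM 3 genes were called higher and 1 lower, where 58.6% of all genes were called, 26.9% higher and 31.7% lower. In JJN3 7 were called higher and 1 lower, where 58.3% of all genes were, 26.2% higher and 32.1% lower. The library values were apart for 6 genes in KMS12-BM, where they were for 68.6% of all genes, and for 9 in JJN3, where they were for 66.3%. The median log2 fold change of the 10 was 0.19 in KMS12-BM and 0.40 in JJN3, and that of all genes was -0.03 in KMS12-BM and -0.04 in JJN3. Without KMS12-BM DMSO replicate 3, 7 genes were called in KMS12-BM, with EFTUD2 (0.32), SNRNP40 (0.34) and PRPF31 (-0.46) added. With any 1 library of this comparison left out, 8133 to 8825 of all genes were called, against 9245 with every library. TG003 and amiloride were compared with the same DMSO libraries of each line, so their responses share those controls. The shift in read placement of all TG003 libraries cannot be told apart from the drug here.

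PRPF8 had 679, 515 and 716 CPM with TG003 against 1054, 1131 and 1158 CPM with DMSO in KMS12-BM. In JJN3 it had 698, 719 and 626 CPM with TG003 and 814, 820 and 774 CPM with DMSO. All TG003 libraries were below the DMSO libraries of their line, by far in KMS12-BM and narrowly in JJN3. The log2 fold changes were -0.80 ± 0.116 (edgeR adjusted p = 0.00012) in KMS12-BM and -0.21 ± 0.0763 (edgeR adjusted p = 0.0329) in JJN3. The JJN3 call was lost in 4 of 20 alternatives: with all 18 libraries in the fit, and without JJN3 DMSO replicate 1 (-0.19), JJN3 DMSO replicate 2 (-0.20) or JJN3 TG003 replicate 3 (-0.15). Neither SNRNP200 nor EFTUD2 was called lower with TG003. SNRNP200 had 773, 762 and 707 CPM with TG003 against 635, 540 and 543 CPM with DMSO in JJN3, a rise of 0.41 ± 0.0800 on the log2 scale (edgeR adjusted p = 0.00065). EFTUD2 had 362, 338 and 334 CPM with TG003 against 274, 259 and 271 CPM with DMSO in JJN3, a rise of 0.39 ± 0.0835 (edgeR adjusted p = 0.0013). Both rises in JJN3 were without overlap of the libraries. In KMS12-BM neither passed the test, with log2 fold changes of 0.15 ± 0.0761 for SNRNP200 (edgeR adjusted p = 0.106) and 0.23 ± 0.0999 for EFTUD2 (edgeR adjusted p = 0.0642). In a fit blocked by library number (sets of 6), EFTUD2 passed in KMS12-BM (0.24, edgeR adjusted p = 0.0282), as did SNRNP40 in JJN3 (0.32, edgeR adjusted p = 0.0207).

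PRPF6 had 234, 209 and 218 CPM with TG003 and 186, 195 and 166 CPM with DMSO in JJN3. It was higher in all 3 TG003 libraries, by 0.31 ± 0.0987 on the log2 scale (edgeR adjusted p = 0.0173), and the call was lost without JJN3 DMSO replicate 3 (0.24, edgeR adjusted p = 0.0744) or JJN3 TG003 replicate 1 (0.26, edgeR adjusted p = 0.0684). In KMS12-BM its log2 fold change was -0.12 ± 0.0660 (edgeR adjusted p = 0.139). SNRNP40 was not called in either line (0.22, 95% interval -0.05 to 0.49, edgeR adjusted p = 0.140 in KMS12-BM, and 0.32, interval 0.03 to 0.61, edgeR adjusted p = 0.0573 in JJN3). Its pseudogene copy SNRNP40P1 was at 0 in all 6 TG003 libraries and at 0.562 to 4.92 CPM in the amiloride and DMSO libraries. Adding its reads to those of SNRNP40 left 4 members called in KMS12-BM and 8 in JJN3.

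The U4/U6 pair rose together with TG003. PRPF3 had 112, 129 and 121 CPM with TG003 and 77.9, 93.7 and 89.3 CPM with DMSO in KMS12-BM, and 315, 303 and 288 CPM with TG003 and 200, 194 and 174 CPM with DMSO in JJN3. PRPF4 had 106, 114 and 117 CPM with TG003 and 76.4, 87.2 and 101 CPM with DMSO in KMS12-BM, and 115, 109 and 110 CPM with TG003 and 74.8, 76.0 and 69.0 CPM with DMSO in JJN3. Both genes were apart in both lines. For PRPF3 the log2 fold changes were 0.48 ± 0.0969 (edgeR adjusted p = 0.0013) in KMS12-BM and 0.70 ± 0.0719 (edgeR adjusted p = 2.47e-06) in JJN3. For PRPF4 they were 0.36 ± 0.0928 (edgeR adjusted p = 0.00611) in KMS12-BM and 0.63 ± 0.0687 (edgeR adjusted p = 4.36e-06) in JJN3. PRPF31, the third U4/U6 protein, was not called in either line, with -0.30 ± 0.156 (edgeR adjusted p = 0.121) in KMS12-BM and 0.18 ± 0.100 (edgeR adjusted p = 0.150) in JJN3, and its groups overlapped in both. In JJN3 it passed without DMSO replicate 1 (0.28).

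SART1 had 103, 113 and 105 CPM with TG003 against 80.8, 72.9 and 75.5 CPM with DMSO in KMS12-BM, and 132, 115 and 116 CPM with TG003 against 96.0, 92.2 and 69.8 CPM with DMSO in JJN3. It was higher in every TG003 library of both lines, by 0.49 ± 0.0767 (edgeR adjusted p = 0.000205) in KMS12-BM and 0.52 ± 0.128 (edgeR adjusted p = 0.00418) in JJN3 on the log2 scale. USP39 had 85.1, 84.6 and 86.8 CPM with TG003 and 71.7, 66.2 and 56.9 CPM with DMSO in JJN3, a rise of 0.43 ± 0.0914 (edgeR adjusted p = 0.00136). In KMS12-BM its groups overlapped, with 0.12 ± 0.121 (edgeR adjusted p = 0.423). SNRNP40 is the only 1 of the 10 with a pseudogene that the annotation names after it. Removing all processed pseudogenes left 4 members called in KMS12-BM and 8 in JJN3, the same counts as with them. With them, 58.6% of all genes were called in KMS12-BM and 58.3% in JJN3. This removal dropped the pseudogenes before scaling and returned none of their reads to other genes. It therefore cannot show whether reads were assigned to genes alike with TG003 and DMSO. Whether the lower sums of plasma cell markers with TG003 have a part in these changes was not tested.

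Over the 4 comparisons of a drug with DMSO, 24 of 40 tests were called, 18 higher and 6 lower. The share of all genes called lay between 43.6% and 68.7% in the 4, so the total was within the range of all genes. By direction, 19.7% to 33.5% of all genes were called higher and 23.9% to 35.2% lower. PRPF3, PRPF4 and SART1 were called higher in each of the 4. Their log2 fold changes were 0.48 to 1.17 for PRPF3, 0.22 to 0.63 for PRPF4 and 0.28 to 0.59 for SART1. The share of all genes called higher in each of the 4 was not counted. Both drugs of a line share their DMSO libraries, so the 4 calls of a gene are not independent. USP39 was called higher in 3. SNRNP40 was called in none, although its 4 log2 fold changes, 0.14 to 0.32, were all above 0. PRPF6 and EFTUD2 were each called once higher and once lower. Both PRPF6 calls were lost in some alternatives, and neither EFTUD2 call was. Only PRPF3 with amiloride in KMS12-BM changed by 2-fold or more, to 2.24 times its DMSO level.

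In JJN3 both drugs were given at 0.4 mM for 24 h, so they were compared directly. The TG003 libraries also differed in pseudogene reads and in reads placed at more than 1 site, which cannot be told apart from the drug. Amiloride libraries had more PRPF8 and less PRPF31, EFTUD2, PRPF4 and SNRNP200 than TG003 libraries: 1 gene was called higher and 4 lower, where 62.2% of all genes were called, 33.3% higher and 28.9% lower. The library values were apart for 6 genes, where they were for 67.3% of all genes. PRPF8 had 866, 997 and 895 CPM with amiloride and 698, 719 and 626 CPM with TG003, a log2 difference of 0.40 ± 0.0763 (edgeR adjusted p = 0.000546). PRPF31 had 85.4, 76.6 and 79.1 CPM with amiloride and 117, 101 and 106 CPM with TG003 (-0.46 ± 0.101, edgeR adjusted p = 0.00133). EFTUD2 had 288, 239 and 244 CPM with amiloride and 362, 338 and 334 CPM with TG003 (-0.46 ± 0.0835, edgeR adjusted p = 0.000327). The libraries of the drugs were apart for each of these genes, and also for PRPF4 (-0.42 ± 0.0683, edgeR adjusted p = 0.000147) and SNRNP200 (-0.28 ± 0.0799, edgeR adjusted p = 0.00876). PRPF3, PRPF6, SNRNP40, SART1 and USP39 did not pass. For PRPF3 the 95% interval was -0.07 to 0.24, for SART1 -0.21 to 0.35, for USP39 -0.25 to 0.14, for PRPF6 -0.39 to 0.04 and for SNRNP40 -0.44 to 0.14, though SNRNP40 passed without JJN3 amiloride replicate 2 (-0.31). In KMS12-BM the doses differed, and no comparison was made between the drugs.

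The difference in response between the lines was tested by an interaction term. For amiloride, whose dose was lower in KMS12-BM, 1 gene was called higher and 4 lower in KMS12-BM minus JJN3, where 43.2% of all genes were called, 21.6% in each direction. EFTUD2 had the largest difference, -0.85 ± 0.133 (edgeR adjusted p = 3e-05), having fallen in KMS12-BM and not in JJN3. PRPF31 (-0.57 ± 0.194, edgeR adjusted p = 0.023), PRPF8 (-0.46 ± 0.142, edgeR adjusted p = 0.0131) and PRPF6 (-0.39 ± 0.120, edgeR adjusted p = 0.0123) were also lower in KMS12-BM relative to JJN3. PRPF3 was called higher (0.37 ± 0.121, edgeR adjusted p = 0.0189). With the GC trend removed, 2 of these 5 calls were left, and PRPF31 (-0.23), PRPF6 (-0.10) and PRPF8 (-0.32) were lost. The PRPF3 call was lost without JJN3 DMSO replicate 1 (0.32), KMS12-BM amiloride replicate 3 (0.29) or KMS12-BM DMSO replicate 1 (0.29). That of PRPF31 was lost without any 1 of 5 libraries: KMS12-BM amiloride replicate 1 or 3, KMS12-BM DMSO replicate 1, JJN3 amiloride replicate 1 and JJN3 DMSO replicate 3 (-0.54 to -0.36). For TG003, at the same dose in both lines, 2 genes were called, both lower in KMS12-BM minus JJN3, where 13.9% of all genes were called, 7.13% higher and 6.80% lower. These were PRPF8 (-0.57 ± 0.142, edgeR adjusted p = 0.00998) and PRPF6 (-0.40 ± 0.120, edgeR adjusted p = 0.0291). The PRPF6 call was lost in 6 alternatives, among them leaving out JJN3 DMSO replicate 3 (-0.34), JJN3 TG003 replicate 1 (-0.36), JJN3 TG003 replicate 3 (-0.41), KMS12-BM DMSO replicate 3 (-0.37) or KMS12-BM TG003 replicate 2 (-0.36).

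Ratios of members within a library do not depend on how libraries are scaled. They do keep any trend with GC content, which is 47.6% for PRPF3 and 58.8% for PRPF31, and were not recomputed with that trend removed. The size of a ratio also depends on the canonical transcript lengths used, while its change between groups does not. The 5 ratios below were chosen after the changes of their genes had been seen. In CPM per kb, PRPF8 was 1.22, 0.946 and 1.23 times SNRNP200 with TG003 and 2.20, 2.23 and 2.17 times with DMSO in KMS12-BM. In JJN3 it was 0.893, 0.932 and 0.875 times SNRNP200 with TG003 and 1.27, 1.501 and 1.41 times with DMSO. The U5 scaffold and helicase were thus near equal in RNA per length with TG003, and PRPF8 was in excess with DMSO, in both lines and without overlap. With amiloride the PRPF8 to SNRNP200 ratio was 1.78 to 1.94 in KMS12-BM and 1.37 to 1.502 in JJN3. EFTUD2 was 0.506, 0.459 and 0.422 times SNRNP200 with amiloride and 0.734, 0.890 and 0.905 times with DMSO in KMS12-BM. All other groups lay between 0.605 and 0.923. PRPF6 was 0.540 to 0.677 times PRPF8 with TG003 and 0.349 to 0.381 times with DMSO in KMS12-BM, and 0.694 to 0.833 times with TG003 and 0.513 to 0.567 times with DMSO in JJN3.

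The U4/U6 pair was unequal in other groups. PRPF3 was 1.92, 2.11 and 2.24 times PRPF4 with amiloride, 1.25 to 1.36 times with TG003 and 1.07 to 1.29 times with DMSO in KMS12-BM. In JJN3 it was 4.48, 4.66 and 4.71 times with amiloride, 3.14 to 3.35 times with TG003 and 3.03 to 3.20 times with DMSO. The amiloride libraries were above all others of their line, and the TG003 and DMSO libraries overlapped. PRPF31 was 0.276 to 0.341 times PRPF3 with amiloride, 0.678 to 0.879 times with TG003 and 0.965 to 1.83 times with DMSO in KMS12-BM. In JJN3 these ratios were 0.305 to 0.337 with amiloride, 0.438 to 0.490 with TG003 and 0.630 to 0.727 with DMSO. The ranges with amiloride in the lines overlapped, while those with DMSO did not. With 3 libraries against 3, the exact two-sided permutation test cannot go below p = 0.1, which 20 of the 30 ratio differences reached, and the smallest Benjamini-Hochberg adjusted p over the 30 was 0.15.

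**Figure D4:**
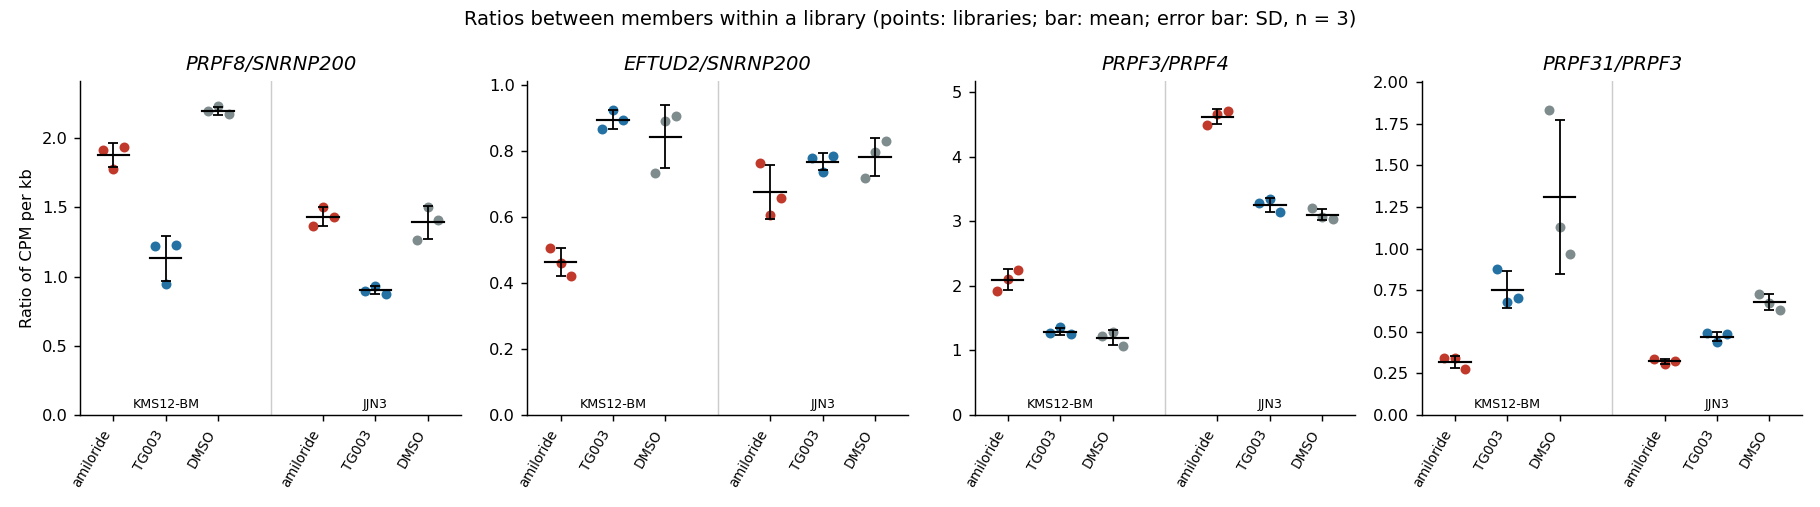
Ratio of the levels per kb of paired genes (vertical axis, from 0) in every library, with amiloride, TG003 and DMSO of KMS12-BM on the left and of JJN3 on the right of each panel. Points are libraries, with mean and SD (n = 3); PRPF8/SNRNP200 is 0.875 to 1.23 with TG003 and 1.27 to 2.23 with DMSO, and PRPF3/PRPF4 is highest with amiloride in each line.

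Together the 10 genes took 0.23% to 0.25% of the reads with amiloride, 0.221% to 0.246% with TG003 and 0.233% to 0.261% with DMSO in KMS12-BM. In JJN3 they took 0.281% to 0.288% with amiloride, 0.268% to 0.29% with TG003 and 0.217% to 0.242% with DMSO. Both drug groups of JJN3 were above DMSO, and in KMS12-BM they were not. Around the mean of the 10, after each gene was centred on its own mean over the 18 libraries, SNRNP200 varied least (a root-mean-square distance of 0.08 log2) and PRPF6 and SART1 next (0.13 and 0.18). PRPF3 varied most (0.54), followed by USP39 (0.47) and PRPF8 (0.40). Among 9965 other protein-coding genes of at least 5 CPM on average, the ones closest to the mean of the 10 over the 18 libraries were RAD1 (0.09), TCP1 (0.10), SF3B4 (0.11) and UQCRB (0.12), where the median of all was 0.55.

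Other genes of the pathway were counted from lists of protein names, which were chosen with earlier results of these data known. Their counts stand beside the shares of all genes tested in the same comparison, as a description and not a test. With amiloride these were 33.5% higher and 35.2% lower in KMS12-BM and 19.7% higher and 23.9% lower in JJN3, and with TG003 26.9% higher and 31.7% lower in KMS12-BM and 26.2% higher and 32.1% lower in JJN3. Of 8 B complex proteins, which join when the tri-snRNP docks, 7 rose and none fell with amiloride in KMS12-BM, and all 8 rose in JJN3. PRPF38B (2.003 and 0.54) and IK (1.02 and 0.65) had the largest log2 rises in KMS12-BM, given here with the JJN3 value second. The median log2 fold change of this list was 0.67 in KMS12-BM and 0.46 in JJN3. With TG003, 4 rose and 2 fell in KMS12-BM, and 5 rose and 1 fell in JJN3. IK (1.18 in KMS12-BM and 1.24 in JJN3) and SMU1 (0.67 and 0.82) had the largest rises, and PRPF38B fell (-0.31 and -0.20). Of 7 other U5 and U4/U6 proteins, 4 rose and none fell with amiloride in each line, led by SNRNP27 (1.27 and 0.69) in KMS12-BM and PRPF4B, a kinase of the particle (0.75), in JJN3. With TG003, 1 rose and 3 fell in KMS12-BM, and 4 rose and none fell in JJN3.

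Of 13 factors that assemble, recycle or modify the tri-snRNP, 7 rose and 2 fell with amiloride in KMS12-BM, and 5 rose and none fell in JJN3. The genes called in either direction were thus 9 of 13 in KMS12-BM, where 68.7% of all genes were, and 5 of 13 in JJN3, where 43.6% were. Both counts were close to the shares of all genes. By direction, 33.5% of all genes were higher and 35.2% lower in KMS12-BM, and 19.7% higher and 23.9% lower in JJN3. TSSC4, a chaperone of U5 (0.96), and COIL, the scaffold of Cajal bodies (0.93), rose most in KMS12-BM, and ZNHIT2 (-1.02) fell most. PRPF19 (0.71) and TSSC4 (0.63) rose most in JJN3. With TG003, 2 rose and 3 fell in KMS12-BM, and 6 rose and none fell in JJN3. Of the 7 LSm proteins that ring the end of U6, 4 rose and 1 fell with amiloride in KMS12-BM, 1 rose and 1 fell in JJN3, and with TG003 1 rose and 1 fell in KMS12-BM, and 1 rose and 2 fell in JJN3. Over all genes, 68.7% and 43.6% were called with amiloride in KMS12-BM and JJN3, and 58.6% and 58.3% with TG003. LSM2 was the 1 that fell with amiloride in both (-0.54 and -0.45).

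Of the 7 Sm ring proteins shared by several particles, 2 rose and 2 fell with amiloride in KMS12-BM, 1 rose and none fell in JJN3, and with TG003 3 rose and 2 fell in KMS12-BM, and 5 rose and 1 fell in JJN3. The 4 of 7 and 1 of 7 called with amiloride stood beside 68.7% of all genes in KMS12-BM and 43.6% in JJN3. The 5 of 7 and 6 of 7 called with TG003 stood beside 58.6% in KMS12-BM and 58.3% in JJN3. SNRPG (2.29 in KMS12-BM and 2.48 in JJN3) and SNRPE (1.78 and 1.91) had the largest rises with TG003, beside a loss of reads from their pseudogenes. Reads in the 20 named pseudogenes of SNRPG were 0.0448 to 0.125 CPM with TG003 and 14.6 to 17.7 CPM with DMSO. For the 10 of SNRPE they were 0.0336 to 0.336 CPM with TG003 and 64.6 to 81.5 CPM with DMSO. Gene and pseudogenes of SNRPE together had 140 to 162 CPM of unscaled reads with TG003 and 98.8 to 124 with DMSO, and those of SNRPG 78.2 to 102 with TG003 and 30.5 to 34.4 with DMSO. The part of the pseudogene reads in these rises was not tested beyond these sums.

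**Figure D5:**
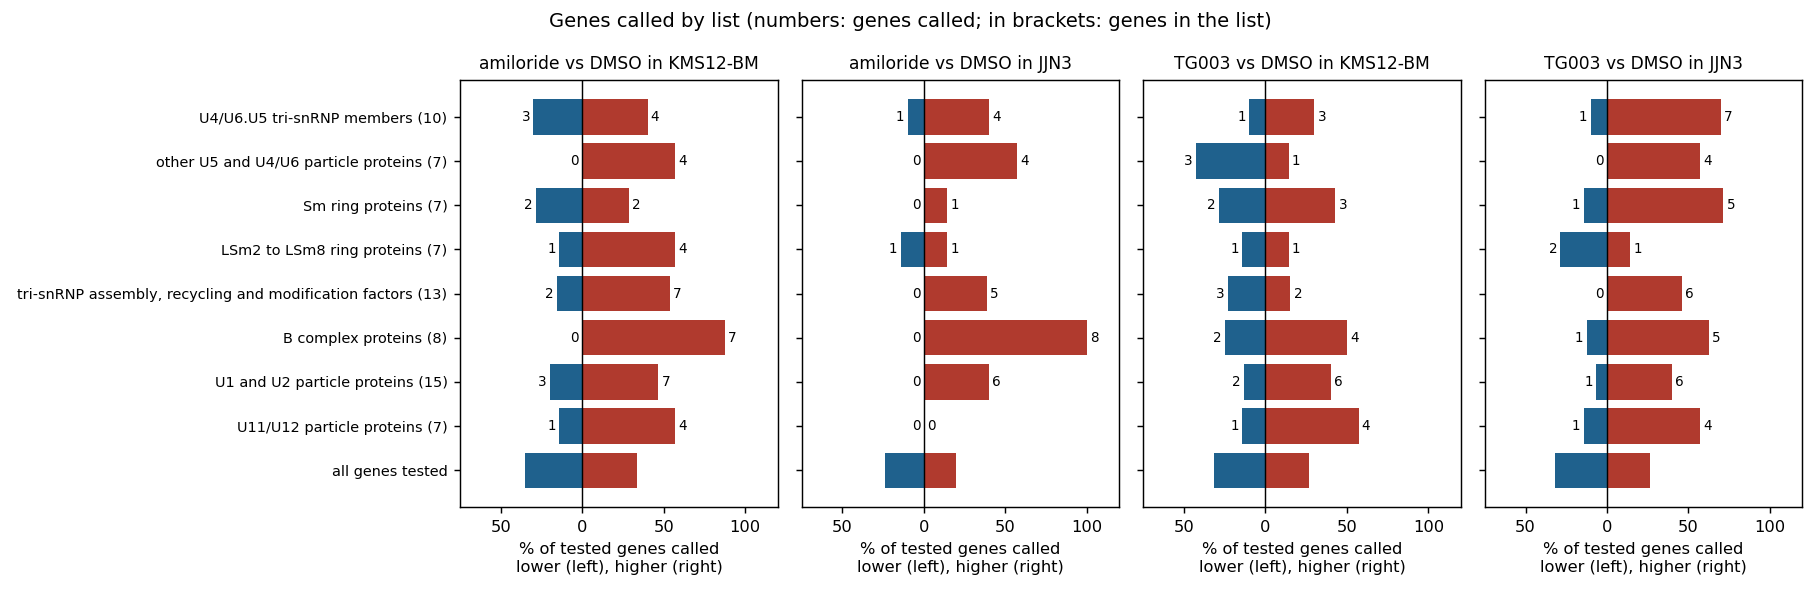
Share of each list called higher (right of 0) or lower (left of 0) against DMSO, in percent of its tested genes, for the 10 tri-snRNP genes, 7 other lists and all genes tested. Numbers at the bars count genes; B complex proteins have 7 higher with amiloride in KMS12-BM and 8 in JJN3.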

How the data were processed

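The deposited files hold raw read counts per Ensembl gene. Per the submitters' processing notes, the authors made them with cutadapt 1.4, TopHat2 2.0.11 on hg19 and HTSeq 0.6.1p1. The versions named were read from the notes of a single library, and whether the TG003 files were processed alike was not checked. The deposited normalized tables were not used here. The kit was strand-specific per the labels, and the strand setting of the counting is not given in the sources used here. Symbols came from GENCODE on GRCh37 by identifier (55538 of 57905 matched, 43521 with a symbol).

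The counts were tested with edgeR 4.0.16 (R 4.3.3; quasi-likelihood F test, robust, TMM scaling, filterByExpr with a minimum count of 10). Each line was fitted with its 9 libraries, and all 18 entered the line difference and interactions. Calls are at a Benjamini-Hochberg adjusted p under 0.05 over all genes tested, and SE is the log2 fold change over the square root of F. The scripts were tested on simulated data. All 10 genes are named, and from the pathway lists up to 2 called rises and 2 falls. The genes and lists were chosen with earlier results of these data known. Counting intervals are not given, since PCR copies of 1 molecule could be counted more than once. Alternatives used limma 3.58.1 voom and DESeq2 1.42.0, among others. Library numbers run in sets of 6. Same-set libraries with TG003 and DMSO deviated together in every set (r of 0.14 to 0.38 in KMS12-BM and 0.32 to 0.34 in JJN3, across genes), so a blocked value is given there where it changed a call.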

Additional observations from a re-analysis of the deposited data

Results flagged for a closer look

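The response to amiloride differed between KMS12-BM and JJN3, by the interaction term of edgeR's fit, for 5 of the 10 genes, where 43.2% of all 17772 genes tested were called, given as the log2 fold change in KMS12-BM minus that in JJN3. The differences were 0.37 for PRPF3, -0.39 for PRPF6, -0.46 for PRPF8, -0.57 for PRPF31 and -0.85 for EFTUD2. With the trend with GC content removed, the calls of PRPF6, PRPF8 and PRPF31 were lost. The PRPF3 call was lost in 3 of 24 alternatives, that of PRPF31 in 6 and that of EFTUD2 in none. KMS12-BM received 0.1 mM amiloride and JJN3 received 0.4 mM, so dose and line cannot be told apart. The response to TG003, at 0.4 mM in both, differed by -0.40 for PRPF6 and -0.57 for PRPF8, where 13.9% of all genes were called. This PRPF6 call was lost in 6 of 24 alternatives and that of PRPF8 in none.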

How the results depend on the processing

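Of 1670 recomputed log2 fold changes of the 10 genes, 1588 kept their side of the threshold and, where called, their direction, 42 newly passed it, 39 no longer passed it and 1 turned its sign. That 1 was PRPF6 with amiloride in KMS12-BM, at 0.147 once the trend with GC content was removed. The genes' GC content is 46.9% to 59.6%. GC values were at hand for at least 97.3% of the genes tested.

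The counts of the 10 genes called moved by over 1.5 times in 3 comparisons. For the amiloride interaction the count was 5, but 2 with the GC trend removed and 3 to 6 with 1 library left out, 3 without KMS12-BM amiloride replicate 3 or KMS12-BM DMSO replicate 1. For the TG003 interaction it was 2, but 1 with upper-quartile factors and 1 to 3 with 1 library left out, 1 without JJN3 DMSO replicate 3, JJN3 TG003 replicate 1, JJN3 TG003 replicate 3 or KMS12-BM TG003 replicate 2. For TG003 in KMS12-BM it was 4, and 4 to 7 with 1 library left out, 7 without KMS12-BM DMSO replicate 3. With 1 library left out, all genes called numbered 7073 to 8021 in the amiloride interaction, against 7681 with every library. They numbered 1842 to 2330 in the TG003 interaction (2476 with every library) and 8133 to 8825 for TG003 in KMS12-BM (9245). Outside the GC trend and library removal, the cause of the moves in member counts was not tested. In the interactions, SART1 (-0.41 without JJN3 amiloride replicate 2 or JJN3 DMSO replicate 1) and USP39 (0.43 without KMS12-BM amiloride replicate 1) newly passed for amiloride, and PRPF31 (-0.61 without KMS12-BM DMSO replicate 3) and PRPF4 (-0.35 without KMS12-BM DMSO replicate 1) for TG003. Among the scalings, upper-quartile factors moved the median of all genes most, by 0.08 log2 for TG003 in KMS12-BM.

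Library numbers run in sets of 6 with 1 library of each group. Same-set libraries correlated at -0.08 to 0.45 in their deviations within a line, and not over 0.1 in every set for amiloride with DMSO. With this replicate block, 8 genes were called with amiloride in KMS12-BM, 6 with amiloride in JJN3, 5 and 9 with TG003 in KMS12-BM and JJN3, 5 between the drugs, 6 between the lines, and 5 and 2 in the amiloride and TG003 interactions. Apart from EFTUD2 and SNRNP40 with TG003 and PRPF8 with amiloride in each line, it changed no call. Processed pseudogenes removed and SNRNP40P1 added to SNRNP40 were chosen after seeing the data. At 1340 reads or more per member and library, the number of libraries limits the precision more than depth.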
